A study of Mus musculus with 16 samples.

Results

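The neuronal intermediate filament genes *Nefl*, *Nefm*, *Nefh*, *Ina* and *Prph* were followed in RNA of 10-day-old mice, from cortex and from striatum. They are 5 of the 53801 genes of the count table and were chosen by their symbols. The control mice carried the genotype Trrap Fl/+; Camk2-Cre tg and the Trrap-FBΔ mice the genotype Trrap Fl/Fl; Camk2-Cre tg, so that all animals carried the Cre transgene and each control had 1 floxed beside 1 wild-type allele, which Cre can also delete from. The strain was given as C57BL6/J-129sv. Mice 55, 58, 63 and 64 gave the 4 control cortices, mice 58, 63, 64 and 65 gave the 4 control striata, and mice 57, 59, 60 and 61 gave the 4 cortices and the 4 striata of the Trrap-FBΔ group. Female mice gave 2 control cortices, 1 control striatum, 3 Trrap-FBΔ cortices and 3 Trrap-FBΔ striata. The study names the Cre line as Tg(Camk2a-cre/ERT2)2Gsc and describes a deletion in pyramidal neurons of the forebrain, and a treatment with tamoxifen is not given in the sources used here. Other cells of the dissected tissue therefore keep Trrap, a cofactor of histone acetyltransferases. Between 28743866 and 48761429 reads were counted per library.

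Neurofilaments are the main intermediate filaments of mature axons. They are built from a light, a medium and a heavy chain, encoded by *Nefl*, *Nefm* and *Nefh*, together with α-internexin, encoded by *Ina*, in central neurons, and peripherin, encoded by *Prph*, mainly in peripheral neurons and in neurons that project out of the brainstem and the spinal cord. The light chain is needed for assembly, and the long tails of the medium and the heavy chain carry many phosphate groups and influence the spacing of filaments and the calibre of the axon. α-Internexin is made early in the development of neurons, whereas the heavy chain accumulates late, when axons grow thicker and are myelinated.

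In the GRCm38 build, *Nefl* (ENSMUSG00000022055) lies on chromosome 14, bases 68083863 to 68089095 of the plus strand. *Nefm* (ENSMUSG00000022054) lies on the minus strand at bases 68082590 to 68124846, and this gene model spans *Nefl*, with 1108 exonic bases that overlap on opposite strands. *Nefh* lies on chromosome 11, bases 4938754 to 4948064 of the minus strand, *Ina* on chromosome 19, bases 47014698 to 47025327 of the plus strand, and *Prph* on chromosome 15, bases 99055174 to 99058978 of the plus strand. Exons of *Ina* overlap those of *Nt5c2* on the opposite strand over 456 bases. The reads were counted by strand, which keeps such partners apart.

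Upstream sequences of *Ina* and *Prph*, the 2 of the 5 genes that the promoter table used here covered, are shown because the study deals with Sp1, a factor that binds GC boxes. In the cortex the level of *Ina* moved least with the genotype and that of *Prph* moved most. Each is the stretch of 250 bases before the start site in RefSeq's GRCm38.p6 annotation, in the direction of transcription, with matches to the GC box (GGGCGG or its complement CCGCCC) and the TATA box (TATAAA or TTTATA) in capitals. The CCAAT box (CCAAT or ATTGG) was searched too and had no match in either stretch.
Ina, chr19:47014431-47014680, plus strand: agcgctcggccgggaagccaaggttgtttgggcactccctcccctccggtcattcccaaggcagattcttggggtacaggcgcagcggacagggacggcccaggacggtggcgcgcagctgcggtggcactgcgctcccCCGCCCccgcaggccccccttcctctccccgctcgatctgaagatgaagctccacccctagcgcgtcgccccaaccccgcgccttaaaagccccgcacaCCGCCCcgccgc
Prph, chr15:99054924-99055173, plus strand: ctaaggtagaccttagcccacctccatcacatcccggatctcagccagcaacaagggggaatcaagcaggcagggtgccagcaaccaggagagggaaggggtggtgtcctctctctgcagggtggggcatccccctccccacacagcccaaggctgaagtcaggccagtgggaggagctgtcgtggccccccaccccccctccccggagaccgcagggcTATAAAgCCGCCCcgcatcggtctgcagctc
The *Ina* stretch held 2 GC boxes and no TATA box, and the *Prph* stretch held 1 GC box and 1 TATA box, 1 base apart and without overlap. A GC box was present in 32.7%, a TATA box in 12.4% and a CCAAT box in 33.8% of 32851 promoter stretches of the same length. The share of G and C was 70.8% in *Ina* and 65.2% in *Prph*, against a median of 52.4% over all stretches.

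The labels of the tissue were compared with marker genes before the results. The summed level of genes of striatal projection neurons did not set the libraries labelled striatum apart from the cortices. The summed level of 8 such genes was 217 to 1123 CPM (counts relative to the library size, scaled by TMM) in control striata and 253 to 692 in control cortices, and 1 of the 8, *Tac1*, named after its value was seen, was higher in control striatum by the test. In Trrap-FBΔ mice the sum was 331 to 546 CPM in striata and 314 to 419 in cortices. There 4 of the 8 genes were higher in striatum and 1 was lower, where 27.4% of all genes tested were called higher. *Ppp1r1b*, which encodes a phosphoprotein of these neurons, was at 19.4 CPM in the control striatum of mouse 58 and at 301 in that of mouse 64, whereas the control cortices reached 184. Genes of cortical excitatory neurons did set the labels apart, with 6 of 6 lower in striatum in each genotype. Their sum was 293 to 511 CPM in control striata and 1381 to 1788 in control cortices. Of 7 genes of the pallidum and basal forebrain, 7 were higher in striatum in each genotype. Their sum was 37.5 to 67.6 CPM in control striata and 6.23 to 18.6 in control cortices. Genes of more distant regions were also abundant in the libraries labelled striatum. The thalamic factor *Tcf7l2* was at 87 to 169 CPM in these 8 libraries and at 6 to 14.7 in the 8 cortices, and the hypothalamic peptide gene *Pmch* was at 45.5 to 71.9 against at most 1.21. Of 5 thalamic genes 4 were higher in striatum in each genotype, beside 20.3% of all genes in control and 27.4% in Trrap-FBΔ mice. The other, *Ramp3*, was lower, with log2 differences of -0.88 in control and -0.87 in Trrap-FBΔ mice. Genes of the hindbrain, such as *Hoxb3*, were summed over a list of 5 *Hox* genes that was chosen after their values were seen, as were the midbrain and hypothalamus lists. The midbrain list summed to 23.2 to 107 CPM in the libraries labelled striatum and 2.97 to 10.6 in the cortices, and the hypothalamus list to 64.5 to 106 against 0.233 to 3.34. The hindbrain sum was 7.52 CPM in control mouse 58, 5.02 in Trrap-FBΔ mouse 61, 2.31 in Trrap-FBΔ mouse 59 and 1.57 in control mouse 65, but at most 0.0793 in the other 4 libraries labelled striatum and at most 0.109 in the cortices. The word striatum is used below for the label. Tests of the 5 filament genes and counts of gene lists in the striatum are also given without the libraries of mice 58, 65, 59 and 61, which lowered the number of genes called there from 5704 to 2530, while the nearest profiles and the chromosomal neighbours rest on all libraries. The targeted gene *Trrap* was at 153 ± 15.5 CPM (SD, n = 4) in control and 134 ± 9.88 in Trrap-FBΔ cortices, and edgeR gave a log2 fold change of -0.18 with an adjusted p of 0.083. In the striatum its log2 fold change was -0.04 (adjusted p = 0.52). These counts cover the whole gene and all cells of the tissue, so they check the labels weakly. The medians of all genes tested shifted by 0.001 in the cortex and -0.006 in the striatum on the log2 scale.

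In the cortex, the genes of the heavy and the medium chain and *Prph* were at 0.399, 0.478 and 0.309 of the control level in Trrap-FBΔ mice, *Nefl* was at 0.8 of it, and *Ina* did not pass the test. Of the 5 genes, all of which passed the filter on low counts in every comparison, 4 were lower at the threshold of 0.05 for the adjusted p (edgeR, with the Benjamini-Hochberg method applied to all genes tested). Over all 18268 genes tested, 17.6% were called lower. Since RNA of whole tissue was measured, fewer cells of a type and less RNA per cell cannot be told apart.

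*Nefm* showed the clearest change by p, at rank 7 of all genes tested. It was at 204, 221, 237 and 241 CPM in control cortices (mice 55, 58, 63 and 64) and at 100, 110, 104 and 117 CPM in the Trrap-FBΔ cortices of mice 57, 59, 60 and 61. The highest Trrap-FBΔ library stood far below the lowest control. The log2 fold change was -1.06 ± 0.064 (SE), with an adjusted p of 4.5e-06.

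*Nefh* was at 48.8, 61.5, 58.4 and 61.9 CPM in the control cortices and at 20.3, 26.3, 21.7 and 23.6 CPM in the Trrap-FBΔ cortices, in the same order of mice. The groups did not overlap here either, and the log2 fold change of -1.33 ± 0.093 (adjusted p = 7.3e-06) was the larger of the tail-bearing chains. *Prph*, which had the lowest level per length of the family, was at 8.64, 6.19, 7.34 and 8.15 CPM in the control cortices and at 2.58, 1.76, 1.49 and 3.41 CPM in the Trrap-FBΔ cortices. These levels rest on 238 to 317 counts per control library and 58 to 163 per Trrap-FBΔ library. Again no Trrap-FBΔ cortex reached a control, and the log2 fold change was -1.69 ± 0.21 (adjusted p = 0.00019).

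*Nefl*, which encodes the light chain, was at 404, 422, 466 and 463 CPM in the control cortices and at 359, 364, 329 and 349 CPM in the Trrap-FBΔ cortices. The groups were separate but closer, with a log2 fold change of -0.32 ± 0.06 (adjusted p = 0.0021), and the call was lost with all 16 libraries in one fit (adjusted p = 0.078). *Ina* was at 192, 203, 191 and 222 CPM in the control cortices and at 175, 186, 174 and 192 CPM in the Trrap-FBΔ cortices. The highest Trrap-FBΔ library exceeded the lowest control, and the log2 fold change of -0.15 ± 0.056 had an adjusted p of 0.056, while the unadjusted p was 0.019 and DESeq2 gave an adjusted p of 0.045. All 4 Trrap-FBΔ cortices thus lay below all 4 controls in *Nefl*, *Nefm*, *Nefh* and *Prph*, a pattern that 16.4% of all genes tested shared.

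**Figure D1:**
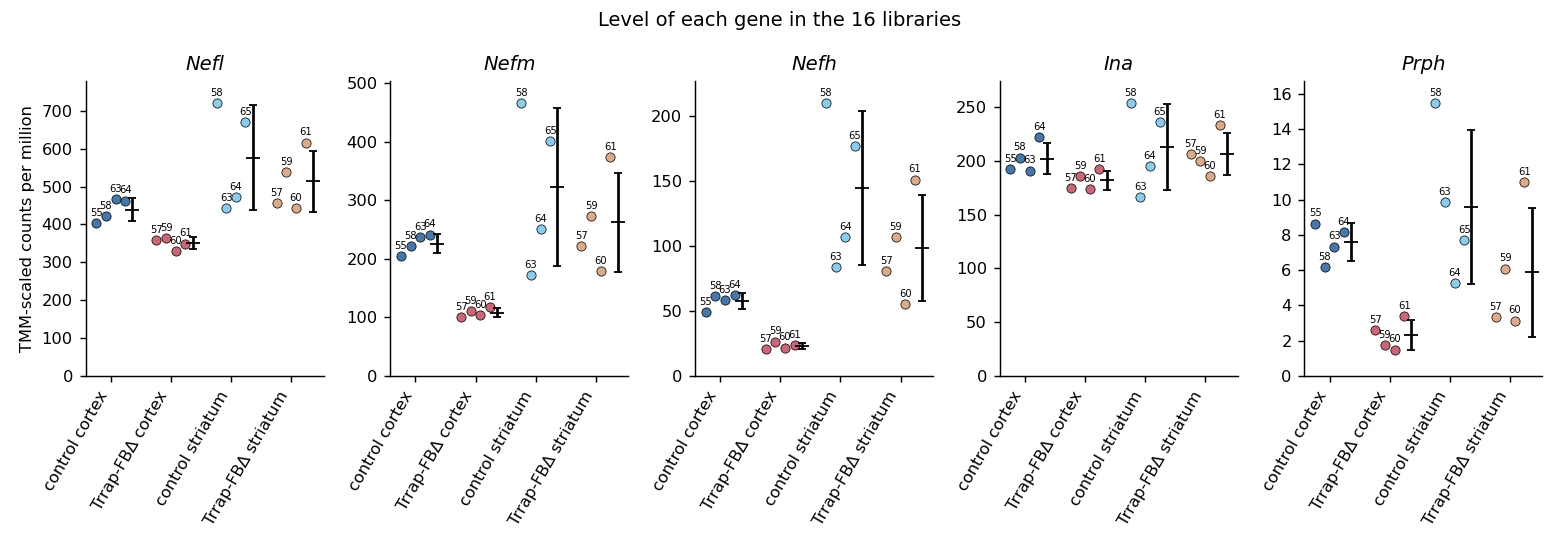
Levels of the 5 genes in TMM-scaled CPM on linear axes that start at 0, for the 4 groups. Points are libraries marked with the number of the mouse, bars show mean ± SD of 4 libraries. In the cortex the Trrap-FBΔ points of *Nefm*, between 100 and 117, lie below all controls, whereas in the striatum the groups overlap.

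The cortical falls did not rest on a single library. With each of the 8 cortex libraries left out in turn, the log2 fold change stayed between -1.11 and -1.02 for *Nefm*, between -1.39 and -1.26 for *Nefh*, between -1.94 and -1.53 for *Prph* and between -0.36 and -0.29 for *Nefl*, and each of these fits passed the threshold. For *Ina* it lay between -0.18 and -0.10, and 2 of 8 fits passed. The control cortices of mice 58 and 63 held more RNA of striatal projection neurons (669 and 692 CPM over 8 genes, against 253 and 269 in mice 55 and 64) and of oligodendrocytes. Without those libraries the same 4 genes were called, where 12.3% of all genes tested were called lower, with log2 fold changes of -0.31 for *Nefl*, -1.05 for *Nefm*, -1.28 for *Nefh* and -1.85 for *Prph*. Genes of oligodendrocytes, the cells that make central myelin, also moved in the comparison of all 8 cortices. The summed level of 6 of them was 1755 to 3142 CPM in control and 1299 to 2025 in Trrap-FBΔ cortices, and none was at 0. There 6 of 6 were called lower, beside 17.6% of all genes tested. Their part in the fall of the filament genes was not tested.

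In the striatum the levels varied widely within each genotype, and none of the 5 genes passed the test, whereas 15.8% of 18872 genes tested were called lower. The count at an unadjusted p under 0.05 was 0 as well, and DESeq2 and limma-voom also called 0 of the 5. *Nefm* was at 466, 172, 251 and 401 CPM in the control striata of mice 58, 63, 64 and 65, and at 222, 272, 179 and 374 CPM in the Trrap-FBΔ striata of mice 57, 59, 60 and 61. The lowest library of all was a control, and the log2 fold change was -0.30 ± 0.30 (adjusted p = 0.47). *Nefh* was at 210, 83.8, 107 and 177 CPM in the control and at 80.8, 107, 55.1 and 151 CPM in the Trrap-FBΔ striata. Its log2 fold change was -0.56 ± 0.33, with an adjusted p of 0.23.

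*Nefl* was at 721, 443, 472 and 670 CPM in the control striata and at 457, 538, 443 and 616 CPM in the Trrap-FBΔ striata, a log2 fold change of -0.17 ± 0.16 (adjusted p = 0.46). *Ina* was at 254, 166, 195 and 236 CPM in the control and at 206, 200, 186 and 233 CPM in the Trrap-FBΔ striata, and its log2 fold change of -0.05 ± 0.12 (adjusted p = 0.78) was the smallest of the family. *Prph* was at 15.5, 9.86, 5.26 and 7.72 CPM in the control and at 3.33, 6.09, 3.13 and 11.0 CPM in the Trrap-FBΔ striata, a log2 fold change of -0.70 ± 0.42 (adjusted p = 0.23). In each of the 5 genes the groups overlapped, whereas 15.5% of all genes tested had every Trrap-FBΔ striatum below every control.

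**Figure D2:**
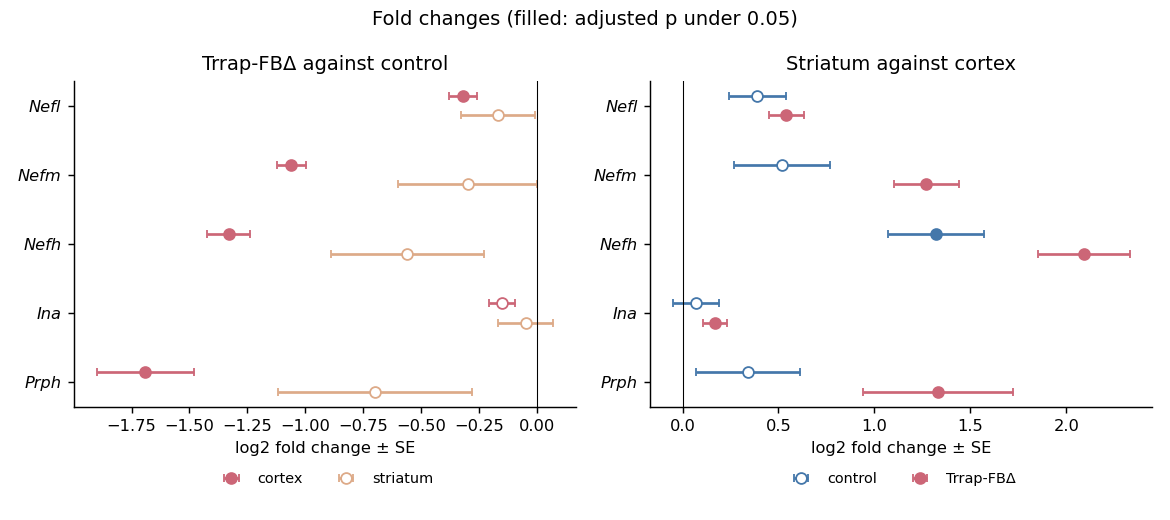
Log2 fold changes with their SE from edgeR for the genotype (left, cortex and striatum) and for striatum against cortex (right, control and Trrap-FBΔ mice), 4 libraries per group. Filled points have an adjusted p under 0.05. In the cortex *Nefm* at -1.06, *Nefh* at -1.33 and *Prph* at -1.69 are filled, and no striatal point of the left panel is.

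The spread of the striatum libraries ran alongside markers of hindbrain and myelin. Within the control group, *Nefl*, *Nefm* and *Nefh* were highest in mice 58 and 65, whose hindbrain sums were 7.52 and 1.57 CPM, and lowest in mouse 63, where the sum was 0.0238 CPM. Within the Trrap-FBΔ group the same 3 genes were highest in mouse 61 and next highest in mouse 59, with hindbrain sums of 5.02 and 2.31 CPM, and lowest in mouse 60, with 0.0402 CPM. For the control mice 58, 65, 64 and 63 the oligodendrocyte genes summed to 9326, 6940, 4405 and 3135 CPM. For the Trrap-FBΔ mice 61, 59, 57 and 60 they summed to 6913, 6330, 4761 and 3921 CPM. *Nefl*, *Nefm* and *Nefh* followed this order in both groups. *Prph* and *Ina* did not fully: *Prph* was second highest of the controls in mouse 63, and *Ina* was higher in Trrap-FBΔ mouse 57 than in mouse 59. Large neurons of the brainstem are known for a high content of neurofilaments. Of 7 midbrain genes, *Sox14* (log2 fold change 1.67, adjusted p = 0.0077) and *En2* (1.44, adjusted p = 0.038) rose in the Trrap-FBΔ striata, and the median of the list was 0.92. Of 6 hypothalamic genes *Hcrt* rose by 0.67 and *Oxt* fell by 0.62. Over all genes tested in the striatum 14.4% were called higher and 15.8% lower, and the hypothalamic counts are near these shares. The part of these regions and cells in the levels of the filament genes was not tested.

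Without the 4 libraries with hindbrain markers, 2 control and 2 Trrap-FBΔ striata remained. *Prph* was then lower, with a log2 fold change of -1.24 ± 0.28 and an adjusted p of 0.033, so that 1 of the 5 genes passed in place of 0, where 7.60% of 19091 genes tested were called lower. *Prph* also passed when the Trrap-FBΔ striatum of mouse 61 alone was left out (log2 fold change -1.21, adjusted p = 0.04). *Nefh* was at -0.50 ± 0.18 (adjusted p = 0.12), *Nefm* at -0.08 ± 0.18 and *Nefl* at -0.03 ± 0.091. This choice of libraries was made after the data were seen. It took out the 2 highest levels of *Nefl*, *Nefm* and *Nefh* in each genotype, and it did not remove markers of other regions. In the control striata of mice 63 and 64 that remained, the midbrain list summed to 23.2 and 61.4 CPM. In the Trrap-FBΔ striata of mice 57 and 60 it summed to 92.3 and 82.1 CPM. The median log2 fold change of that list was 1.21 in this fit, against 0.92 with all striata. Its part in the levels of the filament genes was not tested.

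**Figure D3:**
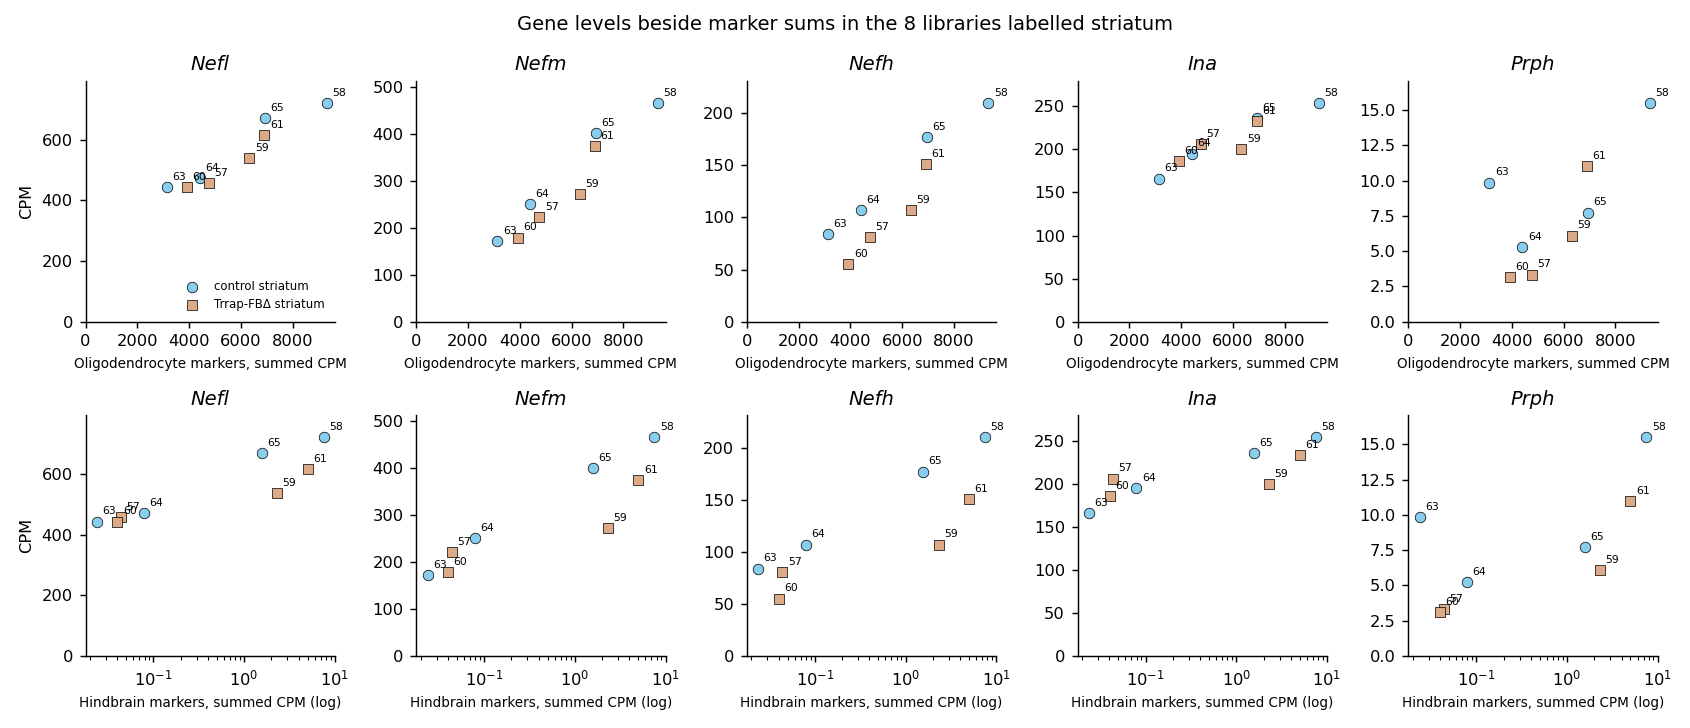
Level of each gene (CPM, vertical axes from 0) beside the summed CPM of 6 oligodendrocyte genes (upper row, linear axis) and of 5 hindbrain genes (lower row, log axis) in the 8 libraries labelled striatum, marked by mouse. *Nefm* and *Nefh* are highest in control mouse 58, which also has the highest sums, 9326 and 7.52 CPM.

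**Figure D4:**
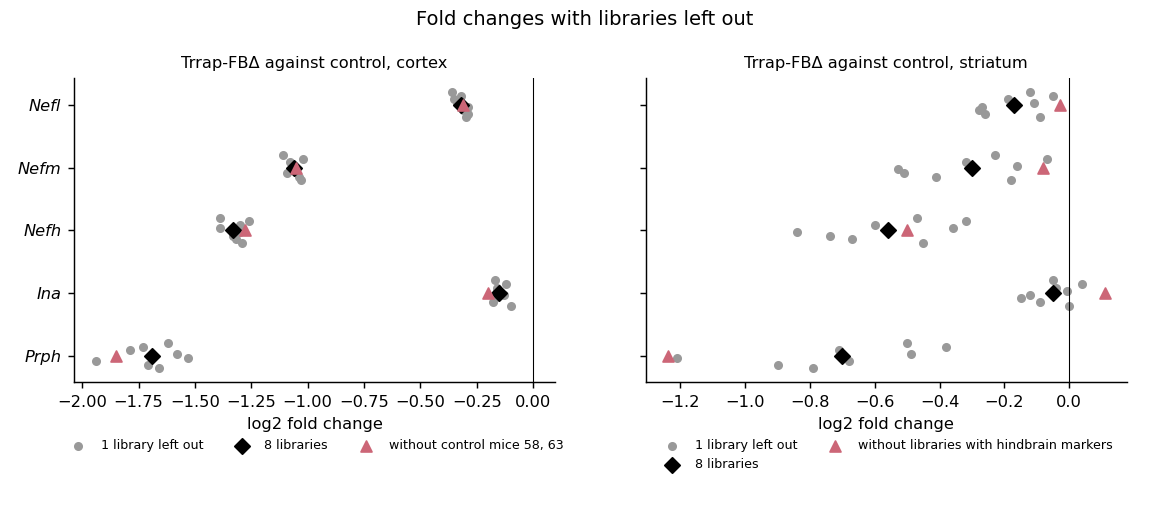
Log2 fold changes of the genotype in the cortex (left) and the striatum (right) with all 8 libraries (diamonds), with 1 library left out (grey points) and with the doubted libraries left out (triangles). The grey points of *Nefm* span -1.11 to -1.02 in the cortex and -0.53 to -0.07 in the striatum.

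An interaction term over all 16 libraries asked whether the genotype acted differently in the 2 tissues, and none of the 5 genes passed it, while 0.437% of 19438 genes tested did. The striatal minus the cortical log2 fold change was 0.76 ± 0.34 for *Nefm*, with an unadjusted p of 0.039 and an adjusted p of 0.38, and 0.77 ± 0.39 for *Nefh*, with an adjusted p of 0.44. It was 1.0 ± 0.53 for *Prph* (adjusted p = 0.48), 0.15 ± 0.19 for *Nefl* and 0.10 ± 0.14 for *Ina*. DESeq2 and limma-voom called 0 of the 5 as well. A call in the cortex without one in the striatum is therefore not shown to be a difference between the tissues. Without the striata with hindbrain markers the difference for *Nefm* was 0.99 ± 0.18 and passed, with an adjusted p of 0.04. In that fit 1 of the 5 genes was called, against 0.374% of 19779 genes tested. It rested on the same 2 control and 2 Trrap-FBΔ striata, chosen after the data were seen, whose midbrain sums differed between the genotypes as given above. The striata left out held the 2 highest levels of *Nefm* in each genotype, so the choice was tied to the values tested. This adjusted p is therefore not a test apart from that choice.

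Between the tissues, the heavy chain gene differed most. In control mice *Nefh* was higher in striatum than in cortex by 1.32 ± 0.25 on the log2 scale (adjusted p = 0.0018), and it was the 1 gene of the 5 that passed, whereas 20.3% of 18284 genes tested were called higher. It was at 83.8 to 210 CPM in the 4 control striata and at 48.8 to 61.9 CPM in the 4 control cortices. The log2 differences of *Nefl*, *Nefm*, *Prph* and *Ina* were 0.39, 0.52, 0.34 and 0.07, with adjusted p of 0.06, 0.13, 0.36 and 0.66, and DESeq2 called *Nefl* as well (adjusted p = 0.025). Without the striatum of mouse 63, *Nefl* (0.50, adjusted p = 0.012) and *Nefm* (0.73, adjusted p = 0.0082) passed too, and without that of mouse 64 *Nefl* did. In the control mice that gave both tissues, *Nefm* was 2.11 times as high in the striatum as in the cortex of mouse 58, 1.04 times in mouse 64 and 0.724 times in mouse 63. The striata of mice 58 and 65 carried hindbrain markers and had the highest levels of *Nefl*, *Nefm* and *Nefh* among the control striata. Without them the log2 difference of *Nefh* was 0.72 ± 0.11 (adjusted p = 0.002) and that of *Nefm* was -0.10 ± 0.14. In that fit 12.9% of 18825 genes tested were called higher.

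In Trrap-FBΔ mice all 5 genes were higher in striatum, against 27.4% of 18872 genes tested. Of the 10329 genes called in either direction 5166 were higher, and with upper-quartile scaling 6318 of 10444 were, with all 5 filament genes again among the higher ones. The log2 difference was 2.09 ± 0.24 for *Nefh*, 1.33 ± 0.39 for *Prph*, 1.27 ± 0.17 for *Nefm*, 0.54 ± 0.092 for *Nefl* and 0.17 ± 0.064 for *Ina*, for which the adjusted p was 0.042 and became 0.18 with all 16 libraries in one fit. Within single mice, *Nefh* was 2.54 to 6.41 times and *Nefm* 1.72 to 3.21 times as high in the striatum as in the cortex of the same animal. Without the striata of mice 59 and 61, 3 of the 5 genes passed, against 21.1% of 19354 genes tested that were called higher, and *Ina* (adjusted p = 0.26) and *Prph* (adjusted p = 0.18) did not. The Trrap-FBΔ cortices of this comparison are the ones compared with the control cortices above.

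To set the genes side by side, the levels were divided by the length of the exons in kb. In control cortex *Nefl* was at 130 ± 9.1 CPM per kb (SD, n = 4), *Ina* at 62.4 ± 4.46, *Nefm* at 39.0 ± 2.97, *Nefh* at 14.4 ± 1.54 and *Prph* at 3.79 ± 0.536, and no 2 neighbours in this order overlapped. With these merged exon lengths the order was the same in the means of the other 3 groups, but in both striatum groups the range of *Nefm* overlapped those of *Ina* and *Nefh*. In control striata *Nefm* ranged from 29.7 to 80.6, *Ina* from 51.4 to 78.5 and *Nefh* from 21 to 52.5 CPM per kb. The exons of *Nefm* were merged over 2 transcripts, and with the length of its longest transcript its mean level in control cortex was 61.3 CPM per kb, next to that of *Ina*. With that length *Nefm* exceeded *Ina* in both striatum groups, at 87.6 against 65.8 in control and 71.1 against 63.7 CPM per kb in Trrap-FBΔ striata.

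The make-up of the family shifted with the genotype in the cortex. Of the summed level per kb, *Nefm* made up 15.6% ± 0.301 (SD, n = 4) in control and 10.1% ± 0.502 in Trrap-FBΔ cortices. *Nefh* made up 5.78% ± 0.414 and 3.10% ± 0.275, and *Prph* 1.53% ± 0.257 and 0.62% ± 0.221. *Ina* took a larger share in Trrap-FBΔ cortices, 30.3% ± 0.801 against 25.0% ± 1.35, and *Nefl* took 56.0% ± 1.47 against 52.0% ± 1.24. None of these 5 shares overlapped between the groups, but the shares of a library add up to the whole and are not 5 separate results. The larger shares of *Ina* and *Nefl* follow from the stronger falls of *Nefm*, *Nefh* and *Prph*. The ratio of *Nefm* to *Nefl* per kb was 0.301 ± 0.00537 in control and 0.18 ± 0.0136 in Trrap-FBΔ cortices. In the striata it was 0.316 ± 0.0656 and 0.293 ± 0.0486, within the spread of the libraries. The ratio of *Nefh* to *Nefm* did separate the striata, at 0.62 to 0.706 in control and 0.445 to 0.586 in Trrap-FBΔ libraries. In the cortices it was 0.347 to 0.403 in control and 0.293 to 0.347 in Trrap-FBΔ libraries. The ratios of *Nefh* to *Nefl* and of *Ina* to *Nefl* overlapped between the genotypes in the striata. The share of *Nefh* was 10.5% ± 1.49 in control striata and 8.28% ± 1.94 in Trrap-FBΔ striata. In the striata without hindbrain markers the share of *Nefm* was 12.5% and 15.9% in control mice 63 and 64 and 14.9% and 13.2% in Trrap-FBΔ mice 57 and 60. These shares and ratios do not depend on the scaling between libraries and are given without a test.

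**Figure D5:**
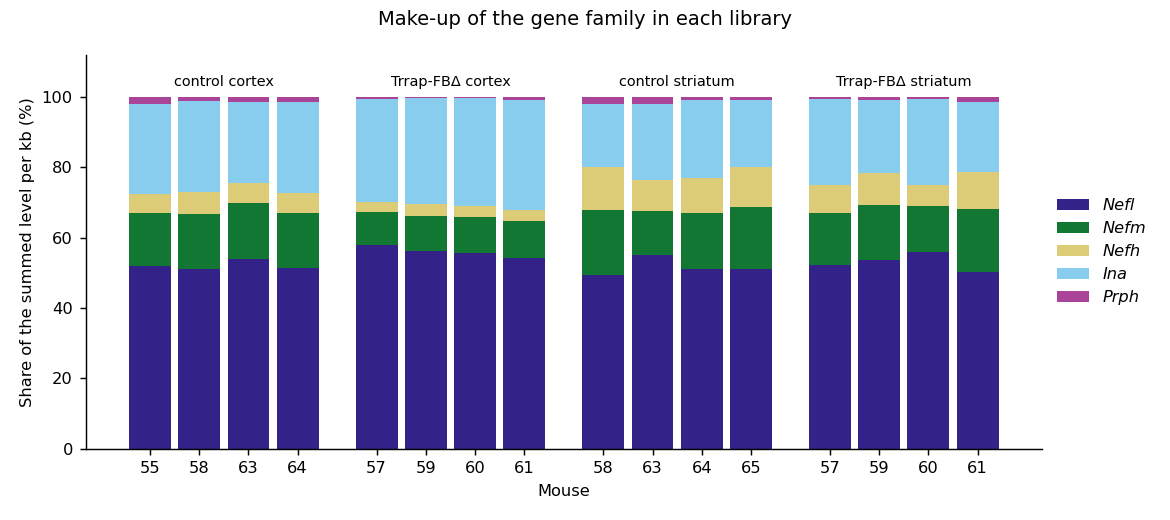
Share of each of the 5 genes in their summed level per kb (%), for each library of the 4 groups, marked by mouse. The *Nefm* share is near 15.6% in control cortices and near 10.1% in Trrap-FBΔ cortices, and in the striata it varies from mouse to mouse.

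Genes that work on neurofilaments were described by lists, beside the medians over all genes given above. Over all genes tested, the share called higher was 15.7% beside 17.6% called lower in the cortex. In the striatum 14.4% were called higher beside 15.8% called lower. The counts below are to be read against these shares, and small ones, such as 1 of 5 or 1 of 6, are near them. Of 6 genes for the turnover of neurofilament proteins, 5 fell in cortex and 3 in striatum, with medians of -0.30 and -0.25. *Uchl1*, a ubiquitin hydrolase abundant in neurons, fell by 0.71 on the log2 scale in the cortex and by 0.56 in the striatum. *Trim2*, a ubiquitin ligase that acts on the light chain, fell by 0.27 and 0.37, and *Capn1*, a calcium-dependent protease, by 0.44 and 0.40. Of 4 genes for proteins that bind neurofilament mRNA, *Arhgef28* fell by 0.54 in the cortex and by 0.57 in the striatum, *Elavl4* fell by 0.42 in the cortex, and *Tardbp* rose by 0.13 and 0.20. Of 8 motor genes, 5 fell and 1 rose in the cortex and 2 fell in the striatum. *Kif5a*, a kinesin that carries neurofilaments along axons, fell by 0.34 and 0.21, and *Kif5b* rose by 0.20 in the cortex.

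Of 11 genes for kinases that act on neurofilament chains and their activators, 4 fell and 1 rose in the cortex and 6 fell and 1 rose in the striatum. *Gsk3b* fell by 0.25 and 0.23, and *Cdk5r1*, the p35 activator of Cdk5, fell by 0.14 and 0.35. Of 3 genes for linkers between filaments and the rest of the cytoskeleton, *Plec* fell by 0.18 in the cortex, and none passed in the striatum. Of 11 genes of the axon initial segment and the node of Ranvier, where the calibre of the axon changes, 5 fell in the cortex and 7 in the striatum. *Scn2a*, a sodium channel of immature axons, fell by 0.31 and 0.54.

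Among 10 other intermediate filament genes, 4 fell and 1 rose in the cortex and 2 fell and 1 rose in the striatum. *Synm*, encoding synemin, was at 92.5 CPM in control and 63 CPM in Trrap-FBΔ cortices and fell by 0.55 there and by 0.61 in the striatum. The lamin gene *Lmnb1* fell by 0.58 and 0.37, *Nes*, encoding nestin of progenitor cells, fell by 0.63 in the cortex, and *Vim* fell by 0.27 in the cortex. *Gfap*, the filament gene of astrocytes, moved the other way and rose by 0.28 in the cortex and by 0.57 in the striatum.

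Genes of immature neurons, a list written with earlier results of these data known, fell in both tissues, 9 of 10 in cortex and 8 of 10 in striatum, with medians of -0.74 and -0.73. *Dpysl3*, a collapsin response mediator, fell by 1.54 and 1.23, *Tubb3*, a neuronal tubulin, by 1.29 and 1.0, and *Gap43*, a growth cone protein, by 0.96 and 0.73. Of 5 pan-neuronal genes, *Map2* fell by 0.34 and 0.25 and *Eno2* by 0.31 and 0.29. *Snap25* and *Syt1*, genes of the synaptic release machinery, were at 0.00 in the cortex, with an adjusted p of 0.99 for each.

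Markers of other cells and regions were read the same way, beside the 17.6% of all genes called lower in the cortex and the 15.8% in the striatum. In the cortex 4 of 4 microglial and 3 of 3 endothelial genes fell, as did 1 of 6 genes of cortical excitatory neurons, 1 of 5 of layer 5 neurons and 3 of 5 thalamic genes. No gene of the striatal projection neuron, pallidum, fast-spiking interneuron, peripheral sensory neuron, choroid plexus or blood lists passed there, and 2 of 5 astrocyte genes fell and 1 rose. In the striatum 4 of 4 microglial genes, 4 of 6 genes of cortical excitatory neurons, 3 of 5 of layer 5 neurons and 3 of 5 of fast-spiking interneurons fell, and 0 of 6 oligodendrocyte genes passed. There 1 of 3 endothelial genes fell, 1 of 5 astrocyte genes rose and 1 fell, and no gene of the striatal projection neuron, pallidum, choroid plexus or blood lists passed. Of 5 thalamic genes 2 rose and 1 fell, and of 5 genes of peripheral sensory neurons, which express *Prph* strongly, 2 rose. Without the striata with hindbrain markers, 7.60% of genes were called lower and 5.65% higher, and the striatal counts of these lists were smaller in part. The lists for turnover (3 fell), immature neurons (8 fell) and cortical excitatory neurons (4 fell) had the same counts as before, and *Arhgef28* fell in this fit too. Of the axon initial segment list 2 fell, of the kinase list 2 fell and none rose, of layer 5 genes 2 fell, of microglial genes 3 fell, and of the other intermediate filament genes *Synm* fell and *Gfap* rose. No motor, pan-neuronal, fast-spiking interneuron, endothelial or astrocyte gene passed, nor did *Gsk3b*, *Tardbp* or *Lmnb1*. Of thalamic genes 2 rose and 2 fell, of pallidum genes 1 fell, of peripheral sensory genes 2 rose, of midbrain genes 2 rose, and no hypothalamic gene passed. The sum of the peripheral list was 2.03 to 8.57 CPM in control and 3.75 to 7.41 CPM in Trrap-FBΔ cortices, which overlap, whereas *Prph* did not. The layer 5 list, which marks neurons rich in neurofilaments, summed to 307 to 420 CPM in control and 381 to 418 CPM in Trrap-FBΔ cortices.

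The genes whose profile over the 16 libraries was most like that of each filament gene were named by the root mean square difference of centred log2 CPM, among 19438 genes tested. Nearest to *Nefm* were *S1pr5* (0.226), *Gm37795* (0.23) and *Prr18* (0.253), and nearest to *Nefh* were *Flt3* (0.325), *Egfl6* (0.353) and *Gjb1* (0.364). *S1pr5*, a sphingosine phosphate receptor, and *Gjb1*, encoding connexin 32, are known from oligodendrocytes. Nearest to *Nefl* were *Rassf5* (0.0961), *Car10* (0.105) and *Nrg1* (0.105), to *Ina* *Phyhipl* (0.0625), *Kcnc4* (0.0663) and *Ano10* (0.0689), and to *Prph* *Tppp3* (0.45), *Ahnak2* (0.459) and *Cgn* (0.471). The 3 genes nearest to *Prph* fell by 1.35, 1.35 and 1.26 in the cortex. Since the cortices of both genotypes are part of the profile, such a fall follows from how these genes were chosen. The distances of *Prph* and *Nefh* were several times those of *Ina* and *Nefl*, whose levels varied less.

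The nearest tested genes on the chromosome are given as a check of position. *Thoc5*, next to *Nefh* at a distance of 9887 bases, was at a cortical log2 fold change of 0.02 (adjusted p = 0.81), and *Ap1b1* on its other side rose by 0.35 there and by 0.37 in the striatum. *Troap*, next to *Prph*, fell by 0.61 and 0.51, at levels near 1.67 CPM in control cortex, and *Tuba1c* on the other side had a log2 fold change of -0.52 ± 0.47 in the cortex. Next to *Ina*, *Cnnm2* and *Pcgf6* were at 0.10 and -0.19 in the cortex and passed in neither tissue, while *Nt5c2*, which overlaps *Ina* on the other strand, rose by 0.15 and 0.13. The nearest tested genes around *Nefl* and *Nefm*, *Gm31107* and *Adamdec1*, were below 1 CPM and did not pass.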

How the data were processed

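From total RNA of cortex and striatum of 9 mice, 16 mRNA libraries (single-end, strand-specific) were made and sequenced, 4 per genotype and tissue. The authors used bcl2fastq 1.8.4, aligned to GRCm38 with STAR 2.5.4b, and counted uniquely mapped reads per Ensembl gene with featureCounts 1.5.0 in its strand-specific mode. The deposited values are these raw counts, without normalization. Groups, mouse numbers and sexes came from the sample labels. Symbols and exon lengths came from a GRCm38 GENCODE annotation (53706 of 53801 identifiers matched) and promoter sequences from a table of RefSeq promoters, which as used here covered 2 of the 5 genes.

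In R 4.3.3, edgeR 4.0.16 fitted the counts (glmQLFit and glmQLFTest) after filterByExpr and TMM scaling, per tissue, per genotype, and over all libraries for the interaction. The threshold was a Benjamini-Hochberg adjusted p of 0.05 over all genes tested. SEs are the log2 fold change over the square root of F. DESeq2 1.42.0, limma-voom 3.58.1, other scalings, filters and covariates, and each library left out were alternatives, and the fits were tested on simulated data. The precision of each level is limited by 4 libraries per group.

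The genes and the 22 lists were chosen with earlier results of these data known, and 3 further lists and the omission of doubted libraries after the values were seen. Named are the 5 genes and *Trrap*, up to 6 genes per list that passed in a tissue with the smallest adjusted p, up to 3 of the highest level from lists of other cells, the 3 most similar genes, and chromosomal neighbours. Libraries with the same number come from 1 mouse. After the mean of its group was subtracted from each library, over 18742 autosomal genes, libraries that shared a mouse correlated with r between 0.0413 and 0.288 (7 pairs, 5 above 0.1) and those of different mice with r between -0.248 and 0.147 (25 pairs). No 2 libraries were duplicates, with a chi-square over its degrees of freedom of 7.56 to 40.4 in 24 pairs within groups.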

Additional observations from a re-analysis of the deposited data

How the results depend on the processing

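For the cortical genotype effect the count of 4 called genes lay between 3 and 5 under every alternative. *Nefl* did not pass with all 16 libraries in one fit (adjusted p = 0.078), and *Ina* passed with DESeq2 (adjusted p = 0.045). In the striatum the count of 0 became 1 without the libraries with hindbrain markers, and the range with 1 library left out was 0 to 1. The interaction count of 0 became 1, by *Nefm*, without those libraries, which held the highest striatal levels of *Nefm* in each genotype. In control mice the count of 1 gene higher in striatum became 2 with upper-quartile scaling, without a filter on low counts, with at least 10 counts in every library, with DESeq2 and with all 16 libraries in one fit, in each case by *Nefl*, and ranged from 1 to 3 with 1 library left out. It was 3 without the control striatum of mouse 63, by *Nefl* and *Nefm*, and 2 without that of mouse 64. In Trrap-FBΔ mice the count of 5 became 3 without the libraries with hindbrain markers, and *Ina* did not pass in 5 of 8 fits with 1 library left out. With the mouse as a replicate block, the counts were 0 for the interaction, 1 for control mice and 5 for Trrap-FBΔ mice, and the paired fit changed no call of a gene. The log2 difference of *Nefm* between the genotype effects was 1.0 with the block.

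Directions reversed for the following values, none of which passed the test in either fit. The genotype effect of *Ina* in the striatum was 0.03 with sex as a covariate, 0.11 without the libraries with hindbrain markers, and -0.15 to 0.04 with 1 library left out, the latter without control mouse 58. In control mice the tissue difference of *Ina* was -0.02 with the replicate block, -0.17 without the libraries with hindbrain markers and -0.03 (without the striatum of mouse 58) to 0.18 with 1 library left out, and in the same fit without those libraries that of *Nefm* was -0.10 and that of *Prph* -0.0046. The causes were not tested. With the longest transcript the levels of *Nefm* per kb rose in all 4 groups, and its share in control cortex was 22.5% against 15.6%. The number of genes called for the interaction over all genes was 85 in edgeR, 430 with DESeq2, 195 without a filter and 219 with the block. The sexes were unequal between the groups. Sex as a covariate was fitted for the genotype effects and the interaction, not for the tissue differences. It changed no count of called filament genes there.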
